A study of Mus musculus with 10 samples.

Results

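Heat shock protein 40 (HSP40) cochaperones, the cochaperone BAG3 and small heat shock proteins are described here through 10 genes, DNAJB1, DNAJB2, DNAJB4, DNAJB6, DNAJA1, DNAJA4, BAG3, HSPB1, HSPB8 and CRYAB. They were chosen by symbol, with earlier results of these data known, and are 10 of the 35395 genes in the authors' deposited table. All 10 have a row in the third and the fourth of its 4 comparisons, and 9 have one in the first and in the second. Per the labels, the samples are epididymal white adipose tissue, a visceral fat pad, of male C57BL/6 mice. The Ad-IGF2 group (2 samples) and its control Ad-GFP (3 samples) were obese mice on a high-fat diet that received adenovirus in that fat pad on both sides, 2 times a week for 4 weeks, with expression driven by a CMV promoter. The IGF2-RNAi group (2 samples) and its control NC-RNAi (3 samples) received lentivirus, with the short hairpin RNA under a U6 promoter, through the tail vein at 3 to 4 weeks of age. Per the labels, the RNA was isolated from treated cells.

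No value in the table can be tied to any of these 10 samples. All 35395 of its identifiers are human, with 0 matches to the 55450 of a mouse annotation, and its 4 comparisons carry no names. Each comparison is therefore called by its place, its upper side the numerator and its lower side the reference. Base means, which are normalised reads averaged over the libraries of a comparison, are sums of whole reads. From them the reads of 8 libraries were recovered, 2 in each of 4 sets. The first numerator set stands in the first and second comparisons, the second numerator set in the third and the fourth, the first reference set in the first and the third, and the second reference set in the second and the fourth. The 8 libraries are fewer than the 10 labelled samples. Whether any set comes from the labelled mouse groups, and from which, cannot be told from the table. The values below are therefore not read as those of mouse fat. Nor can it be told whether the 2 libraries of a set are separate animals, cultures or repeat runs, and hence what the p-values generalise to.

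HSP40 proteins carry a J domain, with which they deliver unfolded client proteins to HSP70 and stimulate its ATPase. BAG3 binds HSP70 as a nucleotide exchange factor, holds HSPB8 and HSPB6 through short motifs, and links client proteins to selective autophagy. Small heat shock proteins share an alpha-crystallin domain and hold unfolding proteins in solution without using ATP, until HSP70 and HSP40 can refold them. Many of these genes are known targets of the heat shock factor HSF1. In mouse fat, HSF1 is known to support the thermogenic programme of adipocytes.

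The libraries held 14470757 and 11984334 reads in the second numerator set, 28087173 and 16190660 in the first numerator set, 20797202 and 16611541 in the first reference set and 15787775 and 15867940 in the second reference set. Over 9549 genes, the SD of the log2 difference between the 2 libraries of a set was 0.23 in the second numerator set, 0.65 in the first numerator set, 0.29 in the first reference set and 0.34 in the second reference set. Library 1 of the first numerator set stood apart from its own set mate, with an SD of 0.61 to 0.80 against each of the other 7 libraries. Library 2 of that set stood at 0.24 to 0.55 from the reference libraries. The libraries of the second numerator set were as far from those of other sets, at 0.62 to 0.92. Ratios that involve the first numerator set are given with and without its library 1. Markers that define adipocytes were close to absent. Over 7 genes they summed to 67 reads in the second numerator set and 36 in the first numerator set. They summed to 18 in the first reference set and 33 in the second, with 2 of the 7 at 0 reads in each. Of the 7, 4 lay above the other 6 libraries in both libraries of the second numerator set, as did 24.4% of 21295 genes tested in the third and the fourth comparison. These were PLIN1 (16 and 8 reads against 0 to 2), CIDEC (10 and 8 against 0 to 1), LPL (3 and 2 against 0 to 2) and ADIPOQ (2 and 1 against 0 to 1). The rest of the 7 did not lie above, namely FABP4 (6 and 2 against 1 to 13), LIPE (4 and 3 against 0 to 9) and CFD (2 and 0 against 0 to 2). Epithelial markers, led by the keratin KRT8, summed to 5732 to 6518 normalised reads per library in the second numerator set, 10668 to 10897 in the first numerator set, 9567 to 11774 in the first reference set and 13428 to 16243 in the second reference set. Nearly all of that was KRT8 and a further keratin, KRT18. The other epithelial markers were close to absent. EPCAM had 2 and 3 reads in the second numerator set and 0 to 7 in the other 6 libraries. CDH1 had 4 and 4 against 1 to 10, and KRT19 had 5 and 4 against 2 to 24. In bulk RNA, fewer cells of a type and less RNA per cell cannot be told apart.

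In the third and the fourth comparison, all 9 of the 10 genes that the authors tested were higher in the second numerator set, at a deposited adjusted p under 0.05. The authors' deposited table calls 14.8% of 22550 tested genes higher in the third comparison and 17.2% of 22151 in the fourth. In the authors' deposited table the median log2 fold change of the 9 genes was 2.32 in the third comparison, against 0.09 over all tested genes, and 1.60 in the fourth, against 0.08. The table leaves DNAJA4 with no adjusted p in either. In the first and second comparisons, 0 of the 8 tested genes were called in either direction and 0 of 9 had an unadjusted p under 0.05, by the authors' own test, whose tool no label or header names. The authors' deposited table calls 0.0516% of 19371 tested genes in either direction in the first comparison, 0.0258% higher, and 0.82% of 17205 in the second, 0.558% higher. The median log2 fold change of the 8 genes in the authors' deposited table was 0.19 in the first comparison, against 0.01 over all tested genes, and -0.14 in the second, against 0.02. The third and the fourth comparison share the 2 libraries of the second numerator set, so their calls are not independent of each other. With 2 libraries on each side, an exact permutation test of a single gene cannot go below a two-sided p of 0.333, so the deposited model p is the only test given.

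**Figure D1:**
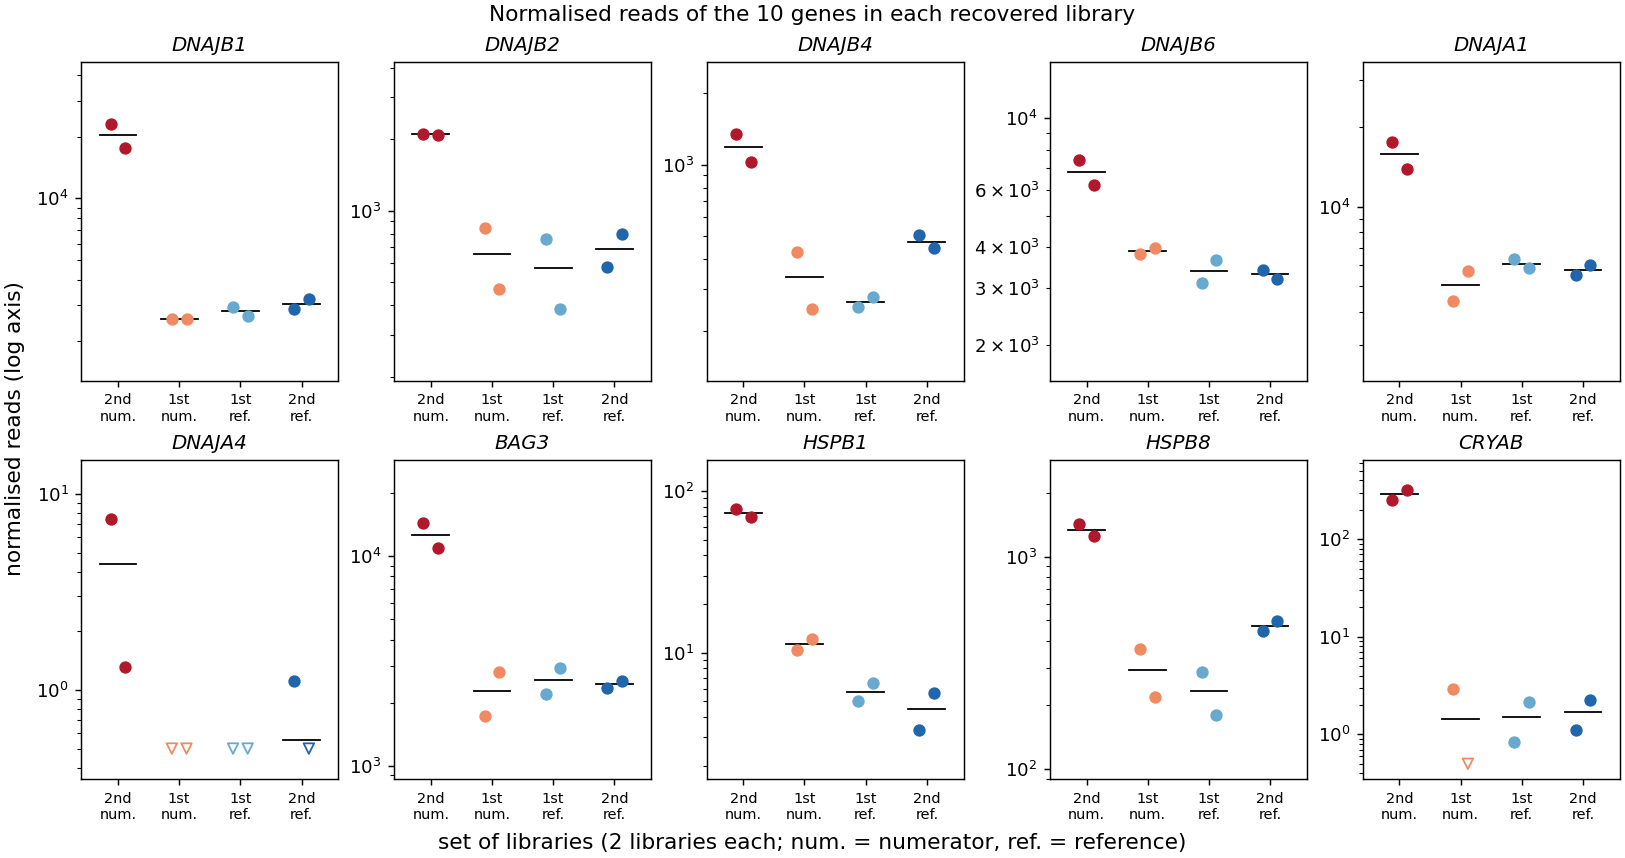
Normalised reads of each of the 10 genes (log axis, a scale for each gene) in the 2 libraries of the second numerator, first numerator, first reference and second reference sets. Points are libraries, bars are set means and open triangles at the lower edge are libraries with 0 reads. In all 10 panels both libraries of the second numerator set lie above the other 6 libraries, in DNAJA4 by library size alone, at 1 read against 1 read.

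In each of the 10 genes, both libraries of the second numerator set lay above all 6 other libraries, which was true of 24.4% of 21295 genes tested in both comparisons. Reads are not divided by gene length, so levels are compared between libraries and not between genes.

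DNAJB1, a type II HSP40 and the main inducible J-domain partner of HSP70, had 23229 and 17626 normalised reads in the second numerator set, against 2573 and 2562 in the first numerator set, 2942 and 2653 in the first reference set and 2872 and 3221 in the second reference set. Its lowest library in the second numerator set was several times above the highest of the other 6, and those 6 lay close together. In the authors' deposited table its log2 fold change was 2.88 ± 0.16 (SE) in the third comparison (adjusted p of 5.01e-67) and 2.74 ± 0.19 in the fourth (adjusted p of 1.31e-45). By deposited p it ranked at place 11 of all rows in the third comparison and at place 30 in the fourth, ahead of the other 9 genes. In the first and second comparisons the authors' deposited table gives it -0.13 ± 0.30 and -0.24 ± 0.31 (SE), with adjusted p of 1.00 and 0.891. Both libraries of the first numerator set lay below both libraries of each reference set, as in 14.7% of 19358 genes in the first comparison and 23.6% of 17200 in the second. Its set mean was 0.918 times the first reference set and 0.843 times the second, and 0.916 and 0.841 times without library 1.

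DNAJB4, a second type II HSP40 expressed in many tissues including muscle, had 1344 and 1020 normalised reads in the second numerator set, against 428 and 248 in the first numerator set, 254 and 278 in the first reference set and 504 and 446 in the second reference set. Its log2 fold change in the authors' deposited table was 2.16 ± 0.21 (SE) in the third comparison (adjusted p of 4.47e-23) and 1.31 ± 0.22 in the fourth (adjusted p of 4.30e-08). The 2 reference sets did not overlap for this gene, and the second was 1.79 times the first. That difference between reference sets was not tested by the authors.

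DNAJB2, known for binding ubiquitylated clients and best described in neurons, had 2109 and 2078 normalised reads in the second numerator set, against 844 and 468 in the first numerator set, 760 and 384 in the first reference set and 578 and 798 in the second reference set. The 2 libraries of the second numerator set were nearly equal, while library 1 was 1.80 times library 2 in the first numerator set and 1.98 times in the first reference set. The authors' deposited table gives it 1.88 ± 0.47 (SE) in the third comparison (adjusted p of 0.000482) and 1.60 ± 0.21 in the fourth (adjusted p of 7.29e-13). Its SE in the third comparison was above the median of 0.21 for the 9 tested genes. Leaving out library 1 of the first reference set put the log2 ratio of the third comparison at 2.45, and leaving out library 2 put it at 1.47.

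DNAJB6, which keeps aggregation-prone proteins soluble, had 7444 and 6211 normalised reads in the second numerator set, against 3810 and 3995 in the first numerator set, 3108 and 3670 in the first reference set and 3417 and 3189 in the second reference set. It moved least of the 9 tested genes. Log2 fold changes of 1.02 ± 0.16 and 1.04 ± 0.17 (SE) stand in the authors' deposited table for the third and the fourth comparison, with adjusted p of 2.90e-09 and 4.59e-08. In the first numerator set both libraries were above both libraries of each reference set, as in 16.9% of all genes in the first comparison and 22.2% in the second. Its set mean was 1.15 times the first reference set and 1.18 times the second, and 1.18 and 1.21 times without library 1. The authors' test did not call that difference, with deposited adjusted p of 1.00 and 0.883 in the authors' deposited table.

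DNAJA1, a type I HSP40 and an abundant cochaperone of HSP70 with a zinc-binding region, had 17515 and 13905 normalised reads in the second numerator set, against 4407 and 5727 in the first numerator set, 6344 and 5848 in the first reference set and 5539 and 6001 in the second reference set. The authors' deposited table gives it 1.37 ± 0.15 (SE) in the third comparison (adjusted p of 3.92e-17) and 1.44 ± 0.18 in the fourth (adjusted p of 4.24e-14). Library 1 of the first numerator set was the lowest of the 8 for this gene, and in the first comparison the authors' deposited table gives -0.28 ± 0.31, with an adjusted p of 1.00. The first numerator set was 0.831 times the first reference set with that library and 0.939 times without it.

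DNAJA4, a type I HSP40 known to be inducible by heat, was near the limit of detection. It had 7 and 1 reads in the second numerator set, against 0 and 0 in the first numerator set, 0 and 0 in the first reference set and 1 and 0 in the second reference set. Against the first reference set, which held 0 reads, no ratio can be given. A floor of 3 reads in the reference set would put it at 3.30-fold, and at 2.79-fold against the second reference set. Those values depend on the floor and are not lower bounds. The exact 95% counting interval of the ratio to the first reference set has a lower limit of 2.11 and no upper limit. Against the second reference set the ratio of reads, scaled by library size factors, was 8.36, with an exact 95% counting interval of 1.12 to 371 that covers counting error only. In the authors' deposited table its unadjusted p was 0.100 in the third comparison and 0.247 in the fourth. The authors' test did not detect a change of this gene at so few reads.

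BAG3 had 14366 and 10977 normalised reads in the second numerator set, against 1727 and 2805 in the first numerator set, 2187 and 2935 in the first reference set and 2345 and 2536 in the second reference set. The 6 lower libraries ended at 2935, far below the lower library of the second numerator set. Its log2 fold change in the authors' deposited table was 2.32 ± 0.18 (SE) in the third comparison (adjusted p of 7.24e-35) and 2.37 ± 0.19 in the fourth (adjusted p of 1.05e-34). By deposited p it ranked at places 46 and 61. Library 1 of the first numerator set was again the lowest of the 8, at 0.616 times library 2, and the first comparison gave -0.19 ± 0.36 in the authors' deposited table, with an adjusted p of 1.00. Without that library the first numerator set was 1.09 times the first reference set, and with it 0.885 times.

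HSPB8, the small heat shock protein that BAG3 holds, had 1419 and 1243 normalised reads in the second numerator set, against 369 and 217 in the first numerator set, 287 and 180 in the first reference set and 448 and 496 in the second reference set. The authors' deposited table gives it 2.52 ± 0.23 (SE) in the third comparison (adjusted p of 4.42e-26) and 1.49 ± 0.20 in the fourth (adjusted p of 6.95e-12). As for DNAJB4, the reference sets did not overlap, and the second was 2.02 times the first. These 2 were the only genes of the 10 with both libraries of the second reference set above both of the first, as were 26.2% of 21295 genes. In HSPB8, as in DNAJB4 and DNAJB1, both libraries of the first numerator set lay below both of the second reference set. The same held for 23.6% of 17200 genes in the second comparison. There HSPB8 stood at -0.67 ± 0.39 in the authors' deposited table, with an unadjusted p of 0.0861 and an adjusted p of 0.635. That was the smallest unadjusted p of any of the 10 genes in the first or second comparison. The first numerator set was 0.621 times the second reference set for HSPB8, and 0.460 times without library 1.

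CRYAB, the alpha-B-crystallin of lens and muscle, was almost undetected outside the second numerator set. It had 240 and 247 reads there, against 5 and 0 in the first numerator set, 1 and 2 in the first reference set and 1 and 2 in the second reference set. The ratio of reads, scaled by library size factors, was 201 against the first reference set, with an exact 95% counting interval of 68.4 to 978. Against the second reference set it was 170, with an interval of 57.7 to 826, and against the first numerator set 150, with an interval of 63.9 to 464. With so few reads on the low side, single libraries moved these ratios. As a ratio of mean normalised reads, CRYAB stood at 193 against the first reference set, and at 134 to 343 leaving out 1 library in turn, the highest without library 2 of that reference set. Against the second reference set it stood at 171, and at 127 to 261, the highest again without library 2 of the reference set. Against the first numerator set it stood at 199.7, and at 99.9 without library 2 of that set, while without library 1, which held all 5 of its reads, there is no ratio. In the authors' deposited table its log2 fold change was 7.67 ± 0.89 (SE) in the third comparison (adjusted p of 6.45e-16) and 7.41 ± 0.90 in the fourth (adjusted p of 6.81e-15). CRYAB was the only one of the 10 in which library 2 of the second numerator set was above library 1. HSPB2, its neighbour in the human genome and also a small heat shock protein, had 1 and 2 reads in the second numerator set, so hardly any of that signal was counted to it.

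HSPB1, known as HSP27 and an actin-binding small heat shock protein, was low in all 8 libraries. It had 73 and 53 reads in the second numerator set, against 18 and 11 in the first numerator set, 6 and 6 in the first reference set and 3 and 5 in the second reference set. Both libraries of the first numerator set lay above all 4 reference libraries in normalised reads, where 16.9% of all genes lay above in the first comparison and 22.2% in the second, while the 2 reference sets overlapped. The first numerator set was 1.96 times the first reference set and 2.52 times the second, and 2.12 and 2.72 times without library 1. Scaled by size factors, the reads of the second numerator set were 13.01 times those of the first reference set, with an exact 95% counting interval of 7.19 to 25.8, and 16.5 times those of the second, with an interval of 8.10 to 39.0. In the authors' deposited table its log2 fold change was 3.69 ± 0.69 (SE) in the third comparison (adjusted p of 1.18e-06) and 4.02 ± 0.75 in the fourth (adjusted p of 1.05e-06). For the first numerator set the authors' deposited table gives 0.97 ± 1.21 in the first comparison and 1.34 ± 1.29 in the second, with adjusted p of 1.00 and 0.824. A pseudogene with a similar sequence, HSPB1P2, held 0 and 1 reads in the second numerator set, 2 and 1 in the first numerator set, 7 and 4 in the first reference set and 1 and 1 in the second reference set. No source states how reads were divided between the gene and its copy, and in the first reference set the copy held about as many reads as the gene.

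**Figure D2:**
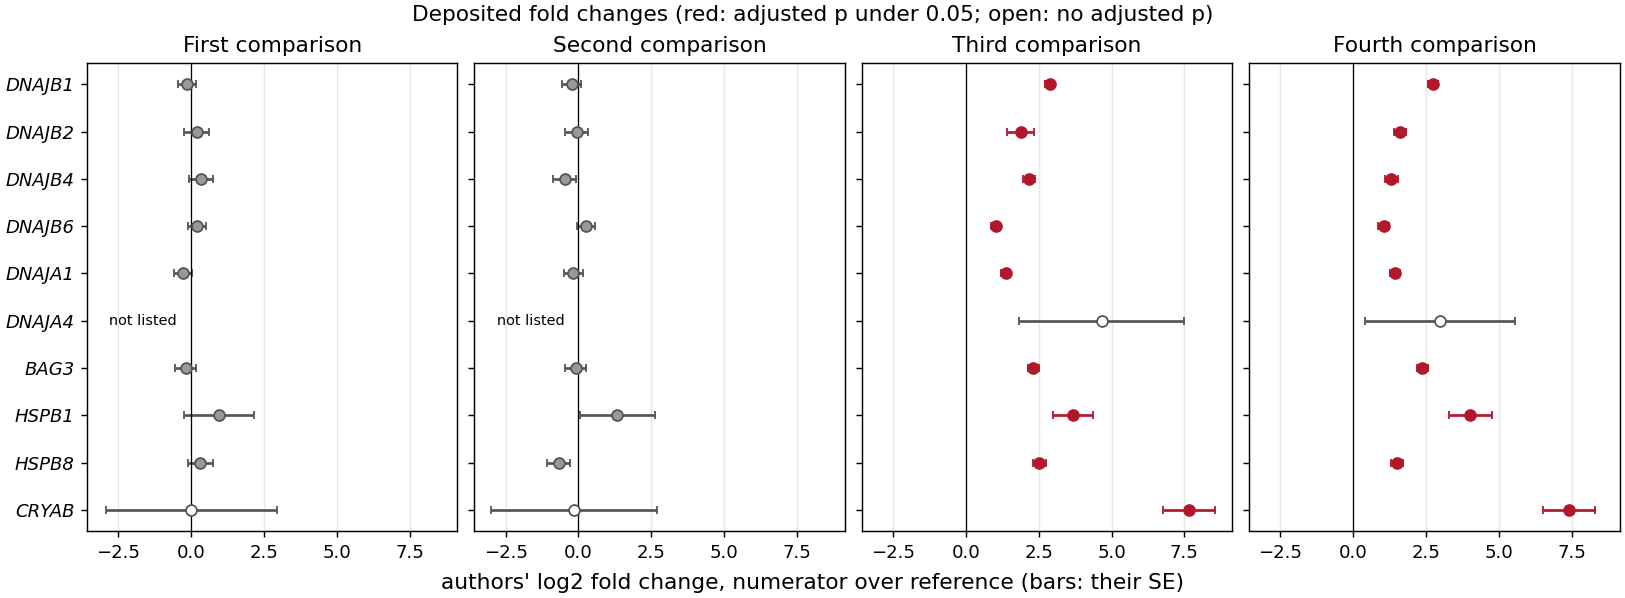
The authors' log2 fold changes (numerator over reference, with their SE as bars) of the 10 genes in the 4 comparisons. Filled red points have an adjusted p under 0.05, grey points do not and open points have none. All 9 tested genes lie at 1.02 or higher in the third and the fourth comparison, and none is called in the first and second.

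The rises of the 9 tested genes differed widely in size. In both comparisons that share the second numerator set, CRYAB, HSPB1 and DNAJB1 had the highest log2 fold changes of the 9 and DNAJB6 the lowest. Between the third and the fourth comparison, DNAJB4 and HSPB8 differed most, with fold changes of 4.48 and 5.72 in the third and of 2.47 and 2.80 in the fourth in the authors' deposited table. Both are the genes whose reference sets did not overlap. Of the tested genes with at least 2 CPM (a base mean rescaled to its comparison's total), the fold changes of the 9 lay between percentiles 89.2 and 99.9 in the third comparison and between 87.6 and 99.8 in the fourth. The median gene of that kind stood at -0.16 in the third comparison and -0.15 in the fourth in log2 units, so on a scale centred on it each of the 9 rises by that much more.

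Set directly against the first numerator set, which no deposited comparison does, the second numerator set was higher in all 10 genes, with no overlap of libraries, as were 32.4% of 21295 tested genes. DNAJA4, which is not among those tested, had 7 and 1 reads against 0 and 0. The ratio of mean normalised reads was 7.96 for DNAJB1, 5.59 for BAG3, 4.54 for HSPB8, 3.49 for DNAJB4, 3.19 for DNAJB2, 3.10 for DNAJA1 and 1.75 for DNAJB6. For HSPB1 it was 6.49, and CRYAB is given above. Without library 1 of the first numerator set, the same ratios were 7.97 for DNAJB1, 4.52 for BAG3, 6.13 for HSPB8, 4.76 for DNAJB4, 4.48 for DNAJB2, 2.74 for DNAJA1, 1.71 for DNAJB6 and 6.01 for HSPB1. The direction in these 8 genes did not depend on that library, while DNAJB2, DNAJB4 and HSPB8 were further apart without it. In each of these 3, library 1 of the first numerator set stood at 1.70 to 1.80 times library 2. No test of this contrast was run.

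**Figure D3:**
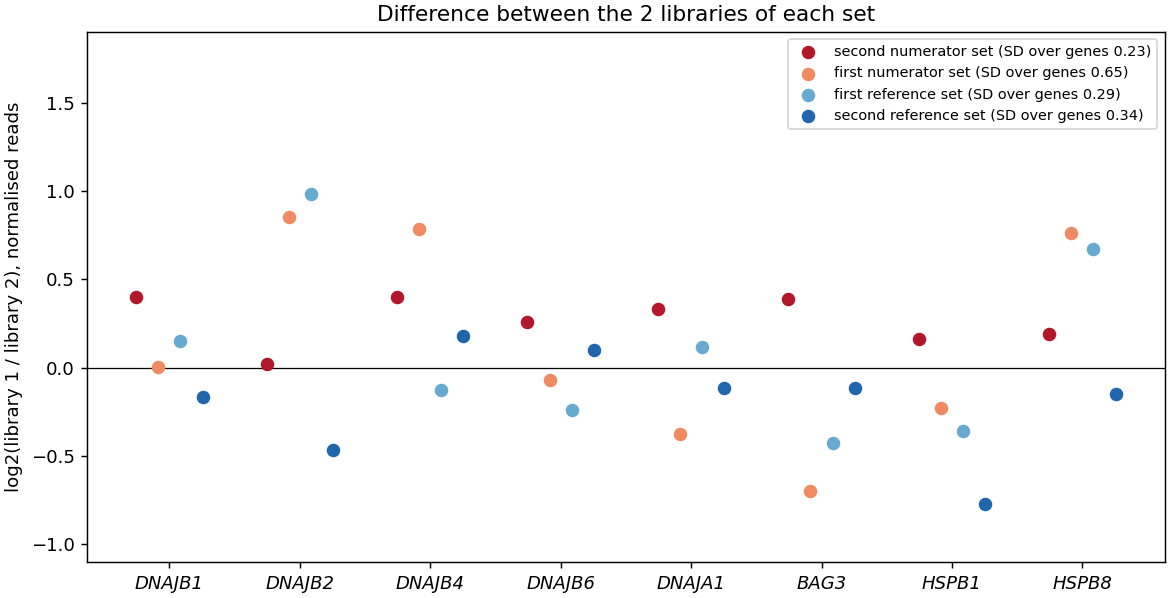
Log2 ratio of library 1 to library 2 within each set, from normalised reads, for the 8 genes with reads in every library. In the second numerator set all 8 ratios are above 0, DNAJB2 is furthest from 0 in the first numerator and first reference sets, and the legend gives the SD of the same quantity over 9549 genes.

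Within the second numerator set, library 1 was above library 2 in all 8 of the genes that had reads in every library, by 1.01 times for DNAJB2 to 1.32 times for DNAJB1. DNAJB1, DNAJB4 and BAG3 were apart by nearly the same factor there, 1.32, 1.32 and 1.31. In the other sets library 1 was higher in 4 of 8 genes in the first numerator set, 4 of 8 in the first reference set and 2 of 8 in the second reference set. Of 19429 genes with reads in every library, library 1 was higher in 47.7% in the second numerator set, 49.7% in the first numerator set, 49.3% in the first reference set and 46.9% in the second reference set.

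The counts for the rest of the chaperone network stand beside 14.8% of all tested genes higher and 16.1% lower in the third comparison, and 17.2% higher and 17.5% lower in the fourth. Of the other DNAJA and DNAJB genes, 2 of 8 tested rose and 1 fell in each of the third and the fourth comparison. Their median log2 fold change was -0.17 in the third and 0.01 in the fourth in the authors' deposited table. Both that rose act in the endoplasmic reticulum. DNAJB9, also called ERdj4, stood at 3.92 ± 0.18 (SE) in the third comparison and 3.66 ± 0.20 in the fourth, and DNAJB11, or ERdj3, at 1.54 ± 0.17 and 1.19 ± 0.18 in the authors' deposited table, with adjusted p of at most 3.15e-10. DNAJB5 fell by 0.93 ± 0.35 and by 1.00 ± 0.34, per the authors' deposited table (adjusted p of 0.0285 and 0.0134). The mitochondrial DNAJA3 did not pass the test, at -0.38 ± 0.16 and -0.32 ± 0.18 in the authors' deposited table.

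DNAJC proteins share the J domain and little else. Of 31 tested, 6 were higher and 7 lower in the third comparison, and 5 were higher and 7 lower in the fourth, shares near those of all tested genes. The authors' deposited table puts their median log2 fold change at -0.0031 and 0.03. DNAJC3, the endoplasmic reticulum cochaperone also known as P58IPK, rose by 1.73 ± 0.15 (SE) and 1.93 ± 0.18, per the authors' deposited table, with adjusted p of 9.18e-29 and 6.98e-25. DNAJC25 rose by 1.34 ± 0.25 in the third comparison and 1.00 ± 0.26 in the fourth, and the clathrin uncoating cochaperone DNAJC6 by 1.41 ± 0.35 and 0.98 ± 0.29, in the authors' deposited table. DNAJC19, of the mitochondrial import motor, fell in both, at -0.85 ± 0.26 in the third and -1.26 ± 0.26 in the fourth, as did DNAJC17, at -0.84 ± 0.29 and -1.18 ± 0.29, in the authors' deposited table. A pair of genes passed in a single comparison. The endosomal DNAJC13 fell in the third, at -0.58 ± 0.16, and stood at -0.08 ± 0.25 in the fourth (adjusted p of 0.857) in the authors' deposited table. The splicing-related DNAJC8 fell in the fourth, at -0.76 ± 0.18, and stood at -0.0091 ± 0.15 in the third (adjusted p of 0.975) in the authors' deposited table.

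In the third and the fourth comparison the other BAG genes stood between -0.49 and 0.58 on the log2 scale in the authors' deposited table, on both sides of 0. Of 5 tested, 0 rose and 1 fell in the third comparison, and 2 rose and 1 fell in the fourth. BAG5 fell in the third comparison, at -0.43 ± 0.17 (SE, adjusted p of 0.0354), and rose in the fourth, at 0.58 ± 0.22 (adjusted p of 0.0253) in the authors' deposited table. Its normalised reads were 878 and 901 in the second numerator set, against 1194 and 1220 in the first reference set and 673 and 511 in the second, so the 2 references lay on either side of it. BAG2, which inhibits the ubiquitin ligase CHIP, rose in the fourth comparison at 0.50 ± 0.19, and BAG6 fell at -0.42 ± 0.16, with adjusted p of 0.0282 and 0.0330 in the authors' deposited table. In the third comparison they stood at 0.35 ± 0.20 and -0.22 ± 0.14 in the authors' deposited table and did not pass. BAG4, an inhibitor of death receptor signalling, stood at -0.49 ± 0.21 in the third comparison (adjusted p of 0.0549) and -0.29 ± 0.25 in the fourth (0.395) in the authors' deposited table. BAG1 stood at -0.20 ± 0.19 in the third (adjusted p of 0.458) and -0.27 ± 0.22 in the fourth (0.375) in the authors' deposited table. In the second comparison BAG5 stood at 0.83 ± 0.36, with an unadjusted p of 0.0231 and an adjusted p of 0.408 in the authors' deposited table.

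Of the other small heat shock proteins, 3 were tested in each of the third and the fourth comparison. HSPB11, an intraflagellar transport protein despite its name, was the 1 that fell, at -0.73 ± 0.28 (SE) and -1.79 ± 0.27 in the authors' deposited table, with adjusted p of 0.0325 and 1.71e-09. The medians of the 3 were -0.27 and -0.44, which were the values of HSPB6. HSPB9, at 0 to 8 reads in each library, stood at 3.24 ± 1.91 and 2.88 ± 1.84 in the authors' deposited table. Neither HSPB6 nor HSPB9 passed the test. Among 4 tested genes of the heat shock factor list, 0 were called in the third comparison by the authors' test, with 0 at an unadjusted p under 0.05, and 1 fell in the fourth. That was HSF1 itself, at -0.51 ± 0.21 (adjusted p of 0.0406), against -0.32 ± 0.16 in the third comparison (0.129), in the authors' deposited table. HSF2, HSF4 and the HSF1-binding HSBP1 stood between -0.27 and 0.27 in both in the authors' deposited table, and none of the 3 passed the test.

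Of 17 tested rows of HSP70 proteins and cofactors, which these cochaperones serve, 10 were higher and 1 lower in the third comparison, where 14.8% of all tested genes were higher. In the fourth comparison 11 were higher and 2 lower, where 17.2% of all tested genes were higher. The authors' deposited table puts their median log2 fold change at 0.85 and 0.69. HSPA1B, an inducible HSP70, stood at 5.28 ± 0.21 and 5.73 ± 0.20 (SE), and HSPA6, a strictly inducible HSP70 of human cells, at 10.07 ± 0.81 and 10.22 ± 0.52 in the authors' deposited table. HSPA1A, a near-identical copy of HSPA1B whose reads may be divided uncertainly with it, stood at 5.33 ± 0.61 in the third comparison and 6.55 ± 0.19 in the fourth, with adjusted p of 1.19e-16 and 9.73e-247 in the authors' deposited table. HSPH1, the HSP110 exchange factor, rose at 2.51 ± 0.17 and 2.67 ± 0.20, and its relative HSPA4L at 2.47 ± 0.20 and 2.20 ± 0.22 in the authors' deposited table.

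BAG3 works with a further group in selective autophagy, of which 4 of 10 tested genes were higher and 2 lower in the third comparison, and 6 were higher and 1 lower in the fourth. The authors' deposited table puts their median log2 fold change at 0.19 and 0.69. The autophagy receptor SQSTM1, or p62, rose at 1.88 ± 0.13 (SE) and 1.78 ± 0.18, with adjusted p of 3.16e-44 and 9.46e-22 in the authors' deposited table. STUB1, the ubiquitin ligase CHIP, fell at -1.06 ± 0.17 and -1.29 ± 0.20, with adjusted p of 8.59e-09 and 2.60e-09 in the authors' deposited table. It stands in the HSP70 list too. Of the Hippo kinases, which BAG3 can bind, LATS2 rose at 0.68 ± 0.18 and 1.13 ± 0.23 and LATS1 rose at 0.90 ± 0.25 in the fourth comparison, in the authors' deposited table. In the third LATS1 stood at 0.24 ± 0.18 (adjusted p of 0.337) in the authors' deposited table. In the first and second comparisons, 0 genes of any of these 7 lists were called by the authors' test. At an unadjusted p under 0.05 there were 1 and 2 DNAJC genes, 2 and 0 of the HSP70 list, 0 and 1 of the other BAG genes, 0 and 1 of the small heat shock proteins, 0 and 1 of the autophagy partners and none in the other lists.

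**Figure D4:**
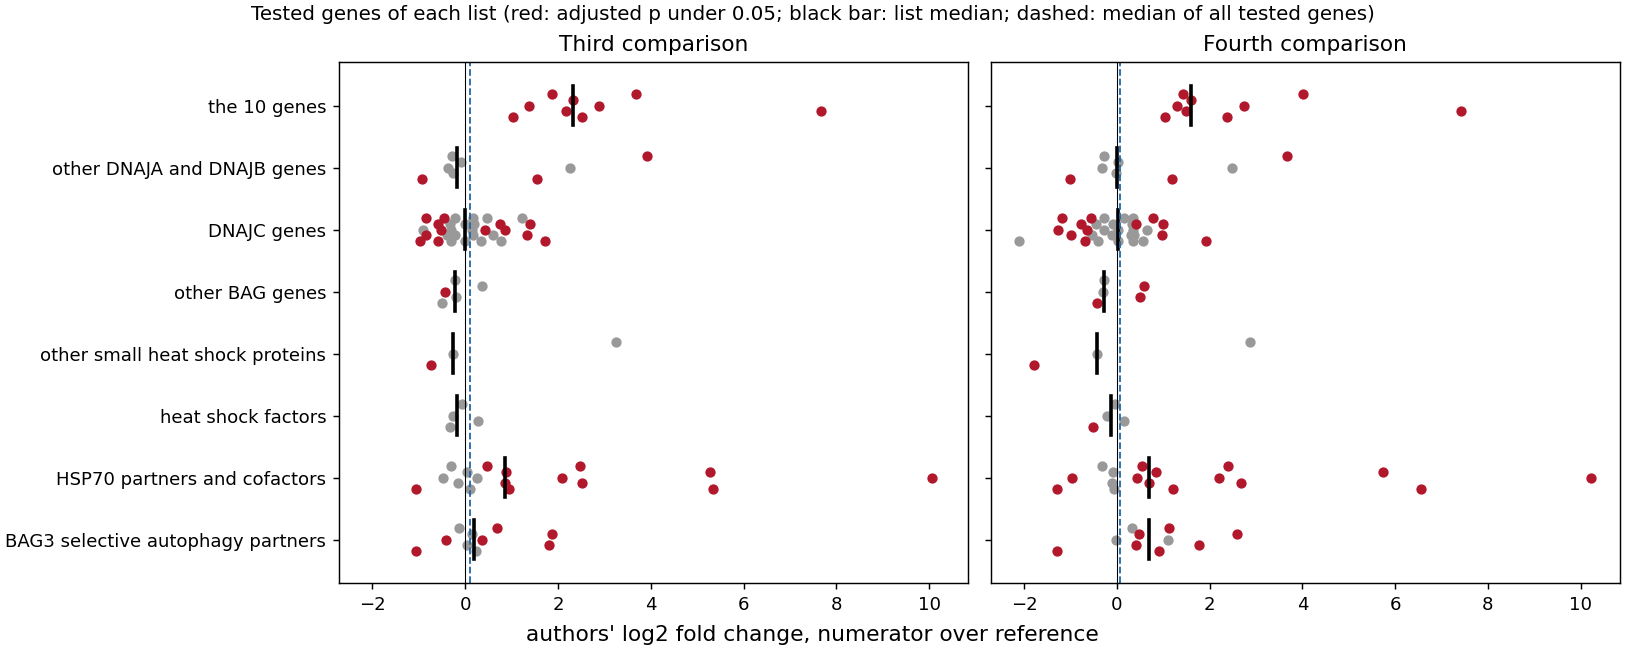
The authors' log2 fold changes of the tested genes of each list in the third and the fourth comparison. Points are genes, red where the adjusted p is under 0.05, black bars are list medians and the dashed line is the median of all tested genes. The 9 tested of the 10 genes lie wholly to the right of 0, while the other DNAJ, BAG and small heat shock genes lie on both sides of 0. Genes and lists were chosen with earlier results of these data known, so this contrast is not a test.

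Over the 4 deposited log2 fold changes, the genes nearest to DNAJB1 among 9552 genes of at least 10 CPM were TRIB3, IL7R and HSPH1, at Euclidean distances of 0.319, 0.390 and 0.496 in log2 units. Nearest to BAG3 were APOL6, ZSWIM4 and CEBPG, at distances of 0.244, 0.269 and 0.288. TRIB3 is a pseudokinase and CEBPG a transcription factor, both known from the response to amino acid shortage, and IL7R is the interleukin-7 receptor. This likeness rests on 4 values that share libraries, and it is a description only.

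Some of these genes are abundant in muscle, above all CRYAB, HSPB8 and BAG3, and 3 of the 6 muscle markers, ACTA2, ACTA1 and MYH1, also lay above the other 6 libraries in both libraries of the second numerator set. Among 21295 genes tested in the third and the fourth comparison, 24.4% lay above in the same way. That share stands beside each count of markers given here. The 6 markers of skeletal or smooth muscle summed to 1517 to 1872 normalised reads per library in the second numerator set, 337 to 686 in the first numerator set, 195 to 360 in the first reference set and 250 to 310 in the second reference set. Nearly all of that was ACTA2, the actin of smooth muscle and myofibroblasts, with 1834 and 1469 normalised reads in the second numerator set. The skeletal muscle markers had few reads. ACTA1 had 12 and 15 reads in the second numerator set and 0 to 7 in the other libraries, MYH1 had 7 and 7 against 2 to 4, CKM 7 and 1 against 0 to 3, and DES 2 and 0 against 0 to 6. MYH11, also on the list, had 8 and 14 reads against 1 to 12 and overlapped the other libraries. Macrophage markers summed to 290 to 305 normalised reads in the second numerator set, 173 to 263 in the first numerator set, 107 to 193 in the first reference set and 150 to 173 in the second reference set. Of 6 macrophage markers, CD163 and MRC1 lay above the other 6 libraries, with 133 and 111 normalised reads of CD163 in the second numerator set against at most 5.77 elsewhere, and 16 and 14 reads of MRC1 against 0 to 3. CSF1R did not, at 68.9 and 83.4 in the second numerator set and 72.1 to 128 in the other libraries. Markers of T and B cells summed to 19.5 to 28.6 normalised reads in the second numerator set and 4.42 to 18.8 in the other libraries. Of the 4 T and B cell markers, CD3D and CD3E lay above the other 6 libraries, and of the 4 endothelial markers VWF did. Endothelial markers summed to 47.7 to 65.1 in the second numerator set and 22.6 to 143 in the other libraries. The part of these markers in the rise of the 9 genes was not tested.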

How the data were processed

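The input was 1 table of 4 unnamed comparisons with 24 value columns, 0 of them tied to a sample. Per the file headers, the authors deposited a base mean (a normalised read count, here a signal), a log2 fold change with its SE, a test statistic (a score), and p-values with adjusted p-values. Aligner, counter and genome build: not given in the sources used here. Per the labels, sequencing and analysis were done by a commercial service with online tools, with genes selected by |log2 fold change| above 1 and p below 0.05.

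Calls use the deposited adjusted p under 0.05. The members and lists were chosen with earlier results of these data known. Reads of each library were computed from the base means, which are sums of whole reads times 1 step per library: steps came from low rows, libraries were matched between comparisons by identical reads (100% in 2636 to 4261 low rows, against at most 66.2% for the best other pair), and whole reads were found by lattice reduction for 26753 of 26755 genes listed in all comparisons. For at least 99.98% of 9550 genes the resulting ratios lay within 0.01 log2 of the deposited fold changes, which had served only as a start. The recovery was tested on simulated data with known reads: of 3000 rows 2989 were solved, all 2989 exactly. Normalised reads use 1 scale for all 8 libraries, fitted to the 16 recovered size factors, with a largest residual of 0.0113 log2. CPM is the base mean scaled to its comparison's sum. No count model was run, because no library could be tied to a labelled sample, and the planned fits per group could not be made. Named are the 10 members, the 4 genes of smallest p per list in either of the last 2 comparisons (at least 2 CPM), and the 3 genes nearest to DNAJB1 and BAG3, the members with the largest statistics. A gene that this rule picks from the autophagy list is not reported here. The neighbour HSPB2, the copy HSPB1P2 and the low-read genes HSPB6 and HSPB9 were named after their values were seen. Counting intervals are exact 95% and cover counting error only. No sequence is printed. Python 3.11.15, numpy 2.4.6, pandas 2.3.3, scipy 1.17.1, mpmath 1.4.1 and matplotlib 3.10.9 were used.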

Additional observations from a re-analysis of the deposited data

How the results depend on the processing

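The calls of the 10 genes did not change. In both comparisons with the second numerator set 9 of the 10 were higher under Benjamini-Hochberg adjustment over all rows or over rows of at least 2 CPM, at a threshold of 0.01, under the selection in the labels and after centring on the median gene, and in the first and second comparisons 0 were called under each. The reads of single libraries, chosen as alternatives after seeing the data, gave log2 ratios of 0.88 to 8.43 in the third comparison and 0.90 to 8.02 in the fourth when 1 library was left out, 36 of 36 positive in each. Scaling by total reads gave 1.20 to 7.79 and 1.24 to 7.62 there, and scaling by genes of at least 10 CPM gave 1.27 to 7.84 and 1.28 to 7.64. In the first comparison 18 of 32 leave-out values were positive and in the second 12 of 32. No paired analysis was possible because no column carries a replicate number and no library can be tied to a sample.

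Counts of the lists depended on the rule. A threshold of 0.01 left 0 lower among the other DNAJA and DNAJB genes in both comparisons, 4 DNAJC genes lower in the third, 0 of the other BAG genes in either direction in either comparison, 0 small heat shock proteins in the third, 0 heat shock factors in the fourth, and 2 higher and 1 lower of the autophagy partners in the third. The selection in the labels left 0 lower among the other DNAJA and DNAJB genes in both, 3 higher and 0 lower DNAJC genes in the third, 1 higher and 2 lower in the fourth, 0 of the other BAG genes, 0 small heat shock proteins in the third, 0 heat shock factors, 6 higher of the HSP70 list in the third, 7 higher and 1 lower in the fourth, 2 higher and 1 lower of the autophagy partners in the third and 3 higher in the fourth. In the third, centring on the median gene left 0 lower among the other DNAJA and DNAJB genes, 4 DNAJC genes lower, and 1 higher and 0 lower of the other BAG genes. It also left 0 small heat shock proteins, 1 autophagy partner lower and 1 gene of the heat shock factor list higher there. That gene was the HSF1-binding HSBP1. In the fourth, centring left 0 lower of the BAG genes and of the heat shock factors. Adjustment over all rows left 0 other BAG genes lower in the third and 0 heat shock factors in the fourth, and adjustment over rows of at least 2 CPM gave 2 lower of the other DNAJA and DNAJB genes and 2 of the other BAG genes in the third.

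With 3 reference libraries, as in the labels, in place of the 2 recovered, the derived mean of the numerator set would be 2230 and 2012 for DNAJB2, 83.4 and 76.9 for HSPB1, 1460 and 1272 for HSPB8 and 339 and 311 for CRYAB (the third comparison, then the fourth). The log2 difference of the second from the first numerator set, leaving out each library in turn, ranged over 2.78 to 3.18 for DNAJB1, 1.31 to 2.16 for DNAJB2, 0.67 to 0.93 for DNAJB6, 1.85 to 2.62 for HSPB8 and 6.64 to 7.80 for CRYAB, whose value without library 1 of the first numerator set cannot be given, as no read is left. The planned fits on samples (another normalisation, filter and block) were not run, since the table holds no values per sample. Depth limits DNAJA4, HSPB1 and the low side of CRYAB. The spread between 2 libraries limits ratios that involve the first numerator set for DNAJB2, DNAJB4, HSPB8 and BAG3. For DNAJB2 it limits ratios to both reference sets too, and for HSPB8 those to the first.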
